A study of Mus musculus with 6 samples.

Results

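The TOM complex is the translocase of the outer mitochondrial membrane, the entry gate for nearly all proteins that mitochondria take up from the cytosol. The 9 mouse genes described here encode its subunits and relatives: the channel protein Tomm40 and its paralogue Tomm40l, the receptors Tomm20, Tomm22 and Tomm70a (also named Tomm70), the small subunits Tomm5, Tomm6 and Tomm7, and the cytosolic cochaperone Tomm34. They were taken by name, with earlier results of these data known, from 12666 genes with a level when events were placed by exon (11753 by gene ID and position). Of the 9 genes, 8 were found by Ensembl gene ID with their positions checked. Tomm6 had 0 events under its own gene ID. Its transcript ends were listed under the ID of a neighbouring gene, Prickle4, and were recognised by their exons, so that all 9 genes had a level.

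Tomm20 binds the amphipathic presequences of matrix-bound precursors, and Tomm70a binds carrier-type precursors together with the cytosolic chaperones that hand them over. Tomm22 joins receptors and channel and serves as a docking point for the pore, which Tomm40 forms as a beta-barrel. Tomm5, Tomm6 and Tomm7 are single-span proteins that surround the channel and affect its assembly and stability. Precursors that enter the matrix are then pulled in by the import motor, whose mitochondrial Hsp70 (GRP75, mortalin) is the product of Hspa9, the gene targeted in this study.

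RNA was sequenced from sorted DN3 thymocytes, the early T cell precursors that have CD25 but lack CD44, CD4, CD8 and lineage markers. WT mice and Hspa9 cKO mice, both 5 weeks old and untreated, gave 3 libraries each. The Cre driver, the deleted segment and whether the libraries come from separate animals are not stated in the labels, so that p-values measure how these libraries vary, and that variation may be technical. Levels are in FPKM, which scales fragments by transcript length and by library total, and are those of the transcript starts assigned to a gene, or of its ends where no start was listed. A log2 change is on the log2(FPKM + 1) scale, Hspa9 cKO minus WT, with its standard error, and understates changes of low genes. A gene was called where limma gave an adjusted p (Benjamini-Hochberg over all genes tested) under 0.05. In bulk RNA, fewer cells of a type and less RNA per cell cannot be told apart.

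The targeted gene did not separate the groups by its summed level. Hspa9 starts stood at 105.4, 121.2 and 121.7 FPKM in WT and at 117.2, 123.5 and 109.7 FPKM in Hspa9 cKO, a log2 change of 0.01 (SE 0.09, limma adjusted p = 0.952) that turned negative under some settings. The share of its transcripts that included exons 2 to 4 did separate them, with 100%, 89.9% and 86.1% in WT against 24.5%, 15.8% and 26.7% in Hspa9 cKO. The limma fit of inclusion over exclusion still did not call this pair (log2 ratio change -5.90, limma adjusted p = 0.210). Of the 8 markers of the DN3 stage, 4 rose, and their summed level was 583 to 655 FPKM in WT and 1028 to 1120 FPKM in Hspa9 cKO. Markers of later T cells summed to 11.6 to 13.6 FPKM in WT and 5.56 to 6.40 FPKM in Hspa9 cKO, with 2 of 4 tested lower. Immediate early genes, which also respond to cell handling, summed to 145 to 159 FPKM and 62.8 to 75.3 FPKM, with 3 of 4 tested lower. Of the other cell types, the B cell markers were listed in 0 of 5 cases, erythroid and dendritic markers summed to at most 0.882 FPKM, Lyz2 (myeloid) overlapped between groups, and the natural killer genes Ncr1 and Klrb1c had no level and Gzma stood at 171 to 187 FPKM in WT and 143 to 148 FPKM in Hspa9 cKO. Epcam, the thymic epithelial marker listed, was at 27.2 to 29.1 and 36.7 to 43.0 FPKM, and Foxn1, Krt8 and Psmb11 had no level. A gene missing from the tables may still be expressed, since Hspa8, which every cell uses, had no level either. The part of these shifts in the TOM values was not tested.

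The promoters of the TOM genes, taken from RefSeq (GRCm38.p6), differ in the motifs they hold. The table of promoters held 7 of the 9 genes, and Tomm7 and Tomm40l were the unmatched ones. The 250 bases before the annotated start were searched on both strands for 4 motifs, none of which lies within another. The ETS motif was searched in the single form CCGGAAG, which is longer than the ETS core, so that other ETS-type sites were not counted. The E-box was searched as CACGTG. The other two were CCAAT and the NRF1 motif of which the Tomm20 window below shows a match in capitals. NRF1 and ETS factors are known regulators of genes for mitochondrial proteins. Matches are in capitals and describe letters, not bound sites. Of 32851 such windows in the table, 3.74% held the NRF1 motif, 6.91% the ETS motif, 33.8% CCAAT and 6.02% the E-box.

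The 5 windows shown cover 2 genes that were called lower (Tomm20 and Tomm5), the channel gene Tomm40 and 2 receptors that were not called. They lie at chr8:126945922-126946171 (minus strand, Tomm20), chr4:45108114-45108363 (minus, Tomm5), chr7:19715430-19715679 (minus, Tomm40), chr15:79670618-79670867 (plus, Tomm22) and chr16:57121464-57121713 (plus, Tomm70a), and are written 5′ to 3′ along the gene.
Tomm20: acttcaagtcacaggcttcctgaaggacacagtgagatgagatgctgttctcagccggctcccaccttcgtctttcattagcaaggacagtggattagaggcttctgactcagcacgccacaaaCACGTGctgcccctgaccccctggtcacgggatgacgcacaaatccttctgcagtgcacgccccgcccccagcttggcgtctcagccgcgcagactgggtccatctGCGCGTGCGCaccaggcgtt
Tomm5: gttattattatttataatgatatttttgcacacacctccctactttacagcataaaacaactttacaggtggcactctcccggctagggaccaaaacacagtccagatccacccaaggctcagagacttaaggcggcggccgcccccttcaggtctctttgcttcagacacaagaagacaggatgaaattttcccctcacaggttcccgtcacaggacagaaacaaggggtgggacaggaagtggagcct
Tomm40: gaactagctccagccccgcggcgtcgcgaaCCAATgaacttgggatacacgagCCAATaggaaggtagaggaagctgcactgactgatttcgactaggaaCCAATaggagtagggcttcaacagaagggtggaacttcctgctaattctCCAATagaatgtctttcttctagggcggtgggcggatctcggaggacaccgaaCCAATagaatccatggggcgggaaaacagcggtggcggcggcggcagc
Tomm22: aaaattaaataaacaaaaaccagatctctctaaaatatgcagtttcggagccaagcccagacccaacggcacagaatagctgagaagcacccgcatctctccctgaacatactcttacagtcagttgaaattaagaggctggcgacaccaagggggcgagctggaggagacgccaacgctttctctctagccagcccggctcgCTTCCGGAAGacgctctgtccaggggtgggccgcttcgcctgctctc
Tomm70a: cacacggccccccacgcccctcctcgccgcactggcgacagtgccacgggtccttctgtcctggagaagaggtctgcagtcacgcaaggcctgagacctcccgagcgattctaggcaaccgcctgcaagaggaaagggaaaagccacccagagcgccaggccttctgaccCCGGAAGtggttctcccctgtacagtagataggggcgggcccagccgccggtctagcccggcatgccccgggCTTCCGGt
Tomm20 held 1 NRF1 match and 1 E-box. Tomm5 held no match to any of the 4 motifs in the forms searched. Tomm40 held 5 CCAAT boxes, where 2.79% of all windows held 3 or more. Tomm22 held 2 ETS matches that overlap on opposite strands, and Tomm70a held 2 that lie apart. Of the windows not shown, that of Tomm6 had 1 CCAAT box, and the pair of overlapping windows of Tomm34 had 1 and 2 ETS matches.

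In Hspa9 cKO cells, transcripts of the small subunits and of the receptor Tomm20 were lower than in WT, and no TOM gene was called higher. Tomm5, Tomm6, Tomm7 and Tomm20 were called lower, 4 of 9 genes when events were placed by exon, where 5.35% of 9525 genes tested were called lower. By gene ID, which leaves out Tomm6, it was 3 of 8 genes, where 5.83% of 8883 genes were called lower and 8.39% higher. The number of genes called was 745 higher and 518 lower, but 582 higher and 685 lower after rescaling the libraries by trimmed means. In 8 of 9 genes every Hspa9 cKO library lay below every WT library, where 15.7% of all genes tested did so. The exception was Tomm40l by its listed start. The end of its principal transcript was lower in every Hspa9 cKO library, and that of a transcript with a retained intron was higher in every one. Summed over all Tomm40l ends, the groups overlapped. The median log2 change of the 9 genes was -0.34, beside 0.06 over all genes tested. At an unadjusted p under 0.05, 6 of the 9 had a negative and 0 a positive change, where 12.2% and 18.4% of all genes tested did.

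**Figure D1:**
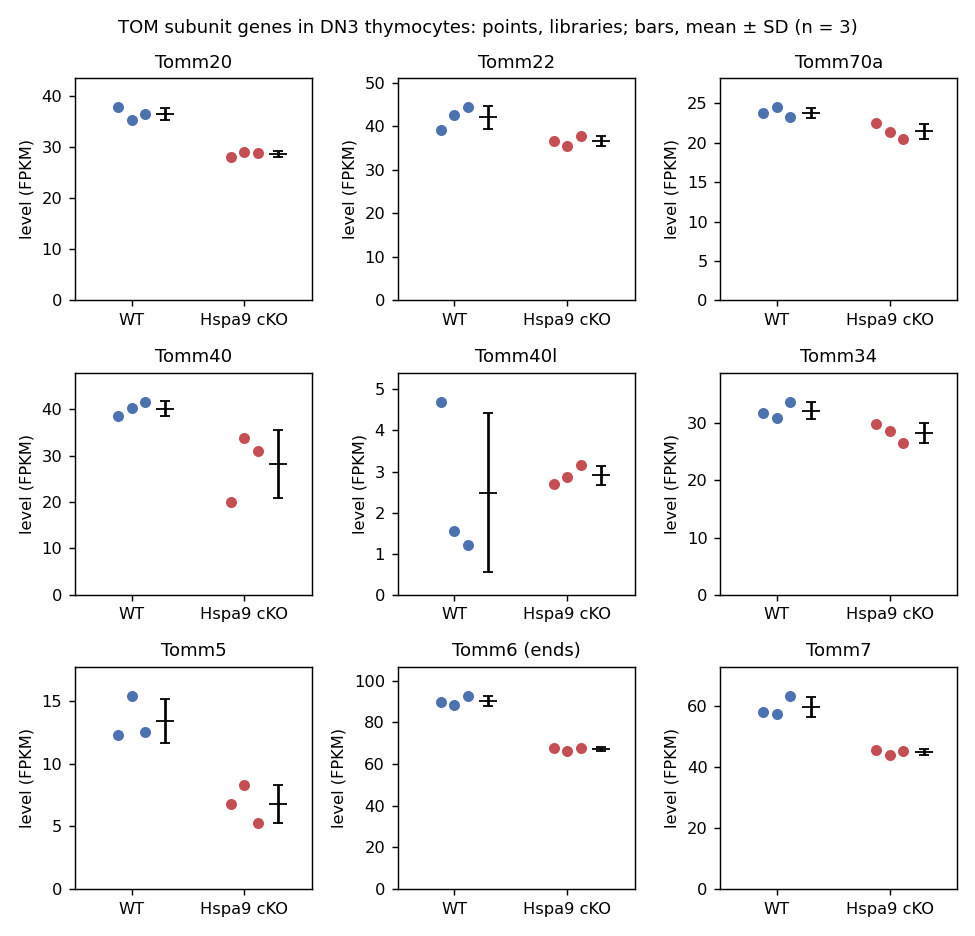
Level in FPKM (vertical axis, from 0) of each of the 9 TOM genes in the 3 WT and 3 Hspa9 cKO libraries; points are libraries and bars are mean ± SD, and Tomm6 is measured at its transcript ends. The groups overlap in Tomm40l alone, shown at its listed start, and Tomm5 shows the largest relative gap, 13.4 against 6.77 FPKM.

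Tomm40, the pore itself (chr7:19701313-19715438, minus strand, mm10), stood at 38.5, 40.2 and 41.6 FPKM in WT and at 19.9, 33.7 and 31.0 FPKM in Hspa9 cKO. The groups did not overlap, but Hspa9 cKO replicate 1 lay far below the others. The means were 40.1 ± 1.59 and 28.2 ± 7.30 FPKM (SD, n = 3 each), with a log2 change of -0.52 (SE 0.19, limma adjusted p = 0.128), so that it was not called. Without Hspa9 cKO replicate 1 the log2 change was -0.30 (limma adjusted p = 0.109). At the transcript end the levels were 51.6, 47.6 and 51.7 FPKM in WT and 25.6, 38.4 and 35.8 FPKM in Hspa9 cKO, with the same library lowest. The fit on ends gave a log2 change of -0.60 (limma adjusted p = 0.0546), also not called. A pair of start events that carried the Tomm40 gene ID lay in a neighbouring gene and were left out.

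Tomm40l (chr1:171216011-171222514, minus strand), a paralogue of the channel protein, was the least abundant by its listed start, which stood at 4.70, 1.55 and 1.21 FPKM in WT and at 2.69, 2.87 and 3.16 FPKM in Hspa9 cKO. The groups overlapped because WT replicate 1 lay above all other libraries, and the log2 change was 0.29 (SE 0.36, limma adjusted p = 0.623). Without WT replicate 1 it was 0.72 (limma adjusted p = 0.0536). The listed exon is the first exon of Tomm40l-204, a transcript with a retained intron, but its inner edge is shared by several annotated transcripts. The start held 2.49 FPKM on average in WT and the end of the principal transcript 7.49 FPKM. The start value therefore does not cover all Tomm40l transcripts, and starts of the principal transcript may be missing from it.

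The transcript ends of Tomm40l went different ways. The last exon of the principal transcript, Tomm40l-201, stood at 7.40, 6.84 and 8.23 FPKM in WT and 5.52, 5.82 and 6.26 FPKM in Hspa9 cKO, with all Hspa9 cKO libraries lower. The end of Tomm40l-204 stood at 1.39, 0.992 and 0.657 FPKM in WT and 2.06, 2.36 and 2.72 FPKM in Hspa9 cKO, with all Hspa9 cKO libraries higher. That end made up 12.05%, 12.6% and 7.30% of all Tomm40l ends in WT and 26.6%, 28.6% and 30.1% in Hspa9 cKO (exact permutation test, two-sided, p = 0.1, the smallest that 3 against 3 libraries allow). A further end, that of Tomm40l-205, was at 2.67 FPKM in WT replicate 1 and at most 0.123 FPKM in the other libraries. Summed over all ends, the level was 11.5, 7.90 and 8.99 FPKM in WT and 7.75, 8.25 and 9.06 FPKM in Hspa9 cKO. The log2 change of that sum was -0.15 (limma adjusted p = 0.526), opposite in sign to that of the start and, like it, not called.

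**Figure D2:**
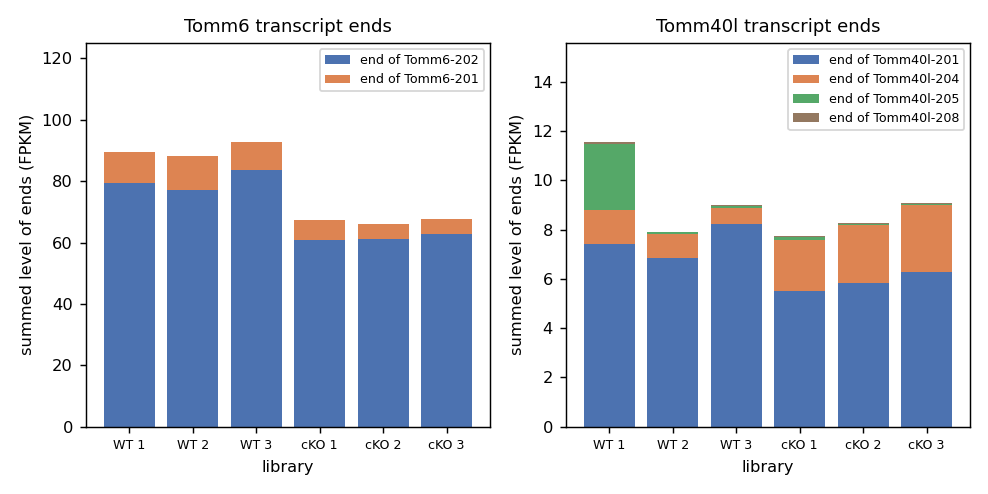
Summed level in FPKM (vertical axis, from 0) of the transcript ends of Tomm6 and Tomm40l in each library, coloured by the annotated transcript whose last exon the end matches. In Tomm40l the end of the retained-intron transcript (orange) holds 26.6% to 30.1% of the Hspa9 cKO bars and 7.30% to 12.6% of the WT bars, and in Tomm6 both ends are lower in Hspa9 cKO.

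Among the receptors, Tomm20 was called lower. Tomm20 (chr8:126930667-126945844, minus strand) had levels of 37.7, 35.3 and 36.5 FPKM in WT and of 28.0, 29.0 and 28.9 FPKM in Hspa9 cKO. The libraries of each group lay close together, with means of 36.5 ± 1.21 and 28.7 ± 0.550 FPKM (SD, n = 3 each). The log2 change was -0.34 (SE 0.07, limma adjusted p = 0.0238). The adjusted p was 0.0449 without WT replicate 2, and rose to 0.0734 without WT replicate 1, 0.0583 without WT replicate 3 and 0.0799, 0.0744 and 0.0791 without Hspa9 cKO replicates 1, 2 and 3, while the log2 change stayed between -0.36 and -0.31.

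Tomm22 (chr15:79670861-79673400, plus strand) had levels of 39.3, 42.7 and 44.4 FPKM in WT and of 36.5, 35.6 and 37.8 FPKM in Hspa9 cKO. The groups did not overlap, and the log2 change of -0.19 (SE 0.07) did not pass the test (limma adjusted p = 0.139). It had a pair of starts, and the major start gave 86.2% of its level in WT and 86.5% in Hspa9 cKO, the mean of 3 libraries each. Tomm70a (chr16:57121703-57156705, plus strand) had levels of 23.7, 24.5 and 23.2 FPKM in WT and of 22.5, 21.3 and 20.5 FPKM in Hspa9 cKO. The groups did not overlap but lay close together, and the log2 change was -0.15 (SE 0.07, limma adjusted p = 0.217).

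The small subunits held both the highest levels and the largest called change. Tomm5 (chr4:45105208-45108114, minus strand) had levels of 12.3, 15.4 and 12.6 FPKM in WT and of 6.79, 8.29 and 5.23 FPKM in Hspa9 cKO. Its mean fell from 13.4 ± 1.74 to 6.77 ± 1.53 FPKM (SD, n = 3 each), with a log2 change of -0.91 (SE 0.17, limma adjusted p = 0.0235). The adjusted p was 0.0368 without Hspa9 cKO replicate 2, but 0.0590, 0.0630 and 0.0588 without WT replicates 1, 2 and 3 and 0.0724 and 0.0577 without Hspa9 cKO replicates 1 and 3, with log2 changes from -1.04 to -0.76. In 5 libraries all Tomm5 signal ran through a middle exon of 50 bases, that of the annotated transcript Tomm5-202. In Hspa9 cKO replicate 3 that exon had 2.89 FPKM and another middle exon, of 179 bases and annotated in Tomm5-203, had 2.34 FPKM.

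Tomm6 (chr17:47686646-47688386, minus strand) was the most abundant TOM transcript. Its ends summed to 89.6, 88.2 and 92.7 FPKM in WT and to 67.4, 66.1 and 67.8 FPKM in Hspa9 cKO. The means were 90.2 ± 2.26 and 67.1 ± 0.894 FPKM (SD, n = 3 each), and the log2 change was -0.42 (SE 0.06, limma adjusted p = 0.0104). The call held without each of the 6 libraries in turn, at adjusted p between 0.0281 and 0.0489. The end of Tomm6-202, the principal transcript, carried 88.7%, 87.6% and 90.2% of the level in WT and 90.3%, 92.5% and 92.6% in Hspa9 cKO. It went from 79.5, 77.3 and 83.6 FPKM to 60.9, 61.1 and 62.8 FPKM. The minor end, that of Tomm6-201, went from 10.1, 10.97 and 9.06 FPKM to 6.57, 4.95 and 4.99 FPKM, a log2 change of -0.77 against -0.37 for the principal end, each without overlap (exact permutation test, two-sided, p = 0.1, the smallest possible). The last exon matches Tomm6-202 as a whole, but its inner edge is shared with an annotated readthrough transcript of another gene, whose reads the level may include. A gene on the opposite strand, Tomm6os, overlaps Tomm6, and since no strand protocol is stated their reads cannot be told apart.

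Tomm7 (chr5:23838944-23844161, minus strand) has 1 annotated transcript. It stood at 58.1, 57.3 and 63.3 FPKM in WT and at 45.5, 43.8 and 45.4 FPKM in Hspa9 cKO, with WT replicate 3 the highest. The means were 59.6 ± 3.30 and 44.9 ± 0.929 FPKM (SD, n = 3 each), with a log2 change of -0.40 (SE 0.07, limma adjusted p = 0.0179). The call held without WT replicate 2 or 3 (adjusted p = 0.0376 and 0.0424) and not without WT replicate 1 (0.0530) or Hspa9 cKO replicates 1, 2 or 3 (0.0606, 0.0700 and 0.0654).

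Tomm34, a cytosolic protein that works with Hsp70 and Hsp90 on precursors and is no membrane subunit of the complex, was not called. Tomm34 (chr2:164053540-164071169, minus strand) had levels of 31.9, 30.8 and 33.8 FPKM in WT and of 29.9, 28.7 and 26.5 FPKM in Hspa9 cKO. The groups did not overlap, and the log2 change of -0.18 (SE 0.08) did not pass the test (limma adjusted p = 0.185). The more used of its 2 starts gave 67.8% of the level in WT and 68.4% in Hspa9 cKO.

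**Figure D3:**
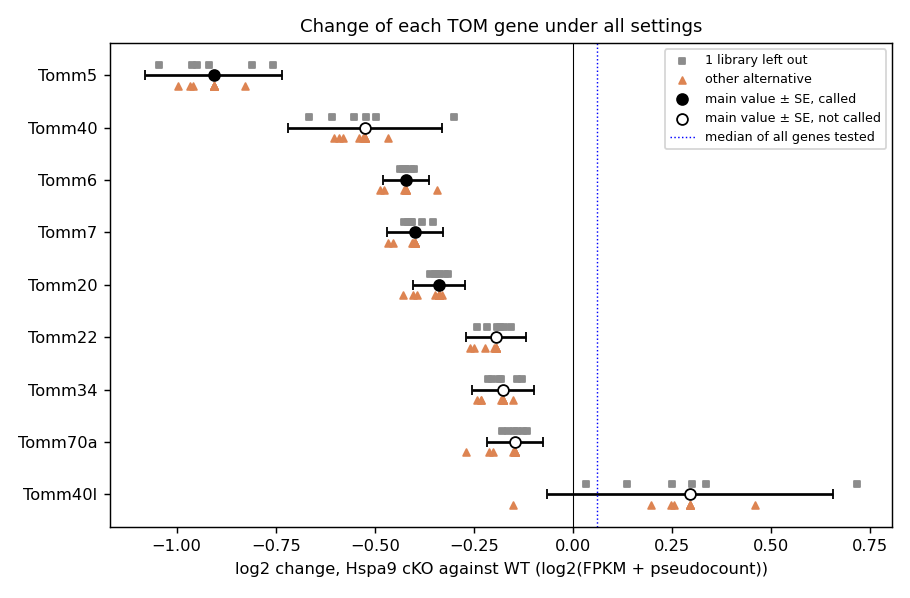
Log2 change (horizontal axis, log2(FPKM + pseudocount), Hspa9 cKO against WT) of each TOM gene: circles with bars are the values ± SE, filled where called, grey squares leave out 1 library each and orange triangles are the other settings. Tomm40l alone lies above 0, with 1 setting below it, and Tomm40 moves to -0.30 without its lowest library.

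The order of levels was compared within each group, since FPKM is per length. In WT the order was Tomm6, Tomm7, Tomm22, Tomm40, Tomm20, Tomm34, Tomm70a, Tomm5 and Tomm40l, and among neighbours in it the ranges of Tomm22 and Tomm40 alone overlapped. That order takes Tomm6 at its ends and the others at their starts. By its summed ends Tomm40 (47.6 to 51.7 FPKM in WT) lay above Tomm22 (39.3 to 44.4 FPKM). In Hspa9 cKO, Tomm6, Tomm7 and Tomm22 were again the highest and Tomm5 and Tomm40l the lowest. Tomm40l is last in both orders by its listed start, and by its summed ends (7.75 to 9.06 FPKM) it overlapped Tomm5 (5.23 to 8.29 FPKM) in Hspa9 cKO. The ranges of Tomm20 and Tomm34, Tomm34 and Tomm40, and Tomm40 and Tomm70a overlapped there. With Tomm40l at its listed start, the 9 levels summed to 336, 336 and 349 FPKM in WT and 259, 269 and 266 FPKM in Hspa9 cKO.

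The makeup of that sum also shifted. The share of Tomm5 went from 3.95% ± 0.558 to 2.55% ± 0.559 (SD, n = 3 each), and that of Tomm6 from 26.5% ± 0.221 to 25.3% ± 0.743, both without overlap. The shares of Tomm22 (12.4% to 13.8%), Tomm34 (9.45% to 10.7%) and Tomm70a (6.998% to 8.09%) were higher in every Hspa9 cKO library than in every WT library. Their levels were lower in every Hspa9 cKO library, and the shares were higher because the sum fell by more. The shares of Tomm7, Tomm20, Tomm40 and Tomm40l overlapped. Against Tomm70a, the receptor for carrier-type precursors, the ratio of the presequence receptor Tomm20 was 1.54 ± 0.0793 in WT and 1.34 ± 0.0844 in Hspa9 cKO, without overlap. The ratio of Tomm5 to Tomm70a was 0.564 ± 0.0597 and 0.316 ± 0.0681, also without overlap. The ratios of Tomm6, Tomm7 and Tomm40 to Tomm70a and of Tomm20 to Tomm22 were also lower without overlap, while that of Tomm40 to Tomm40l overlapped. Tomm70a had the smallest fall of the 8 genes with a negative change (log2 change -0.15). Lower ratios to it therefore restate the larger falls of the other genes. Ratios of Tomm22 and Tomm34 to Tomm70a were not taken. Each difference without overlap had p = 0.1 in an exact two-sided permutation test, the smallest possible.

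No difference in exon use within the TOM genes was called. Inclusion and exclusion were set against each other for 6 pairs of events in Tomm20, Tomm22, Tomm34 and Tomm40, and 0 were called by limma, where 0.202% of 9386 pairs were called. The number at an unadjusted p under 0.05 was also 0. Not every pair can report exon use. Tomm20 exclusion was about 0.002 FPKM, so with the added 1 its ratio change of -0.34 repeats the change in level. Inclusion of the Tomm40 intron was at most 0.185 FPKM, and that of the Tomm34 intron was 0 outside WT replicate 1. The Hspa9 pair was not called either, so a pair not called is no sign of equal exon use. Exon 2 of Tomm22 (119 bases) was included in 90.8%, 89.2% and 90.2% of the signal in WT and 93.6%, 93.1% and 90.3% in Hspa9 cKO. Exon 5 of the 7 exons of Tomm34 (148 bases) was included in 86.6%, 78.6% and 82.6% in WT and 91.0%, 79.8% and 90.9% in Hspa9 cKO, with overlap. Neither length is a multiple of 3. Such values rest on the authors' assignment of reads to isoforms.

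Transcript length moved with the change over all genes. The median log2 change was -0.07 over 1053 genes with a principal transcript of up to 1200 bases and 0.12 over 1831 genes longer than 4800 bases, and 8.45% and 2.46% of them were called lower. Tomm5 (639 bases), Tomm6 (749) and Tomm7 (1125) are in the short class, while Tomm20 (4902) and Tomm70a (5964) are in the long class. With the trend over length and GC content removed in each library, the log2 change was -0.83 for Tomm5, -0.34 for Tomm6, -0.40 for Tomm7 and -0.43 for Tomm20, and all 4 calls held. Tomm70a was then called too, at -0.27 (limma adjusted p = 0.0453).

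**Figure D4:**
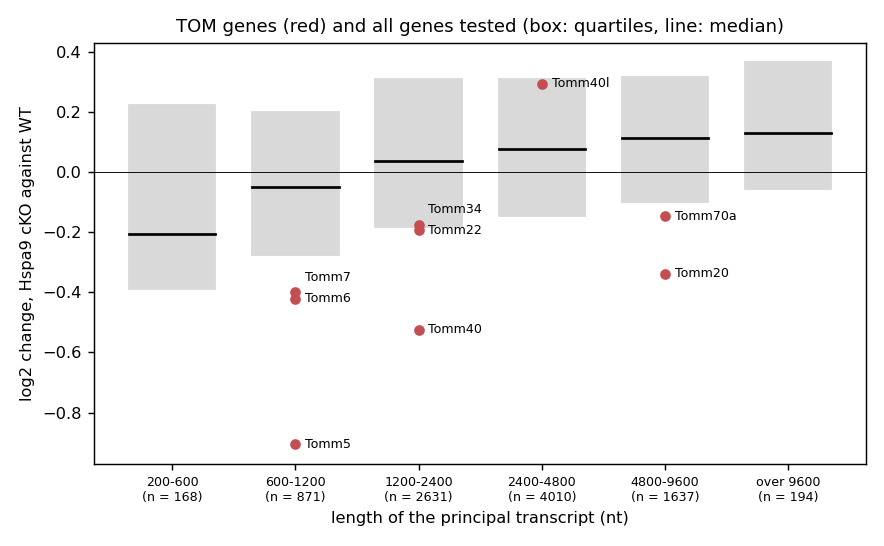
Log2 change (vertical axis, Hspa9 cKO against WT) by class of principal transcript length in bases (horizontal axis); grey boxes span the quartiles and black lines are medians of all genes tested in the class, and red points are the TOM genes. Tomm5, Tomm6 and Tomm7 lie below the box of their length class, as do Tomm22, Tomm40, Tomm20 and Tomm70a.

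In the other steps of protein import, 5 of the 7 genes called lower were cytosolic chaperones. Over 7 lists, 7 of 53 genes tested were called lower and 0 higher by limma, with a median log2 change of -0.20, where 5.83% of all genes were called lower. At an unadjusted p under 0.05, 20 were lower and 3 higher, where 12.4% and 18.9% of all genes were. Among the cytosolic chaperones that deliver precursors, 5 of 12 were lower, with a median of -0.26. They were Dnajb1 (-0.94, an Hsp70 cochaperone), Hsp90aa1 (-0.69) and Hsp90ab1 (-0.51), the Hsp90 isoforms that bring precursors to Tomm70a, Stip1 (-0.46), which links Hsp70 and Hsp90, and Naca (-0.28), a nascent-chain factor. Naca falls outside the naming rule of 4 genes per list and was named after its value was seen. In the TIM23 channel and motor list 1 of 11 was lower, Grpel1 (-0.37, limma adjusted p = 0.0232), the nucleotide exchange factor of mitochondrial Hsp70, with a median of -0.32. In the list around PINK1 at the TOM complex 1 of 7 was lower, Vdac1 (-0.58, limma adjusted p = 0.0478), an outer-membrane channel.

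The outer-membrane insertion (SAM) list had 0 of 8 called (1 lower and 1 higher at an unadjusted p under 0.05) and a median of -0.14. For the intermembrane space it was 0 of 6 (3 lower) and -0.20, for presequence processing 0 of 6 (2 lower and 1 higher) and -0.17, and for TIM22 0 of 3 (1 lower) and 0.02. Whether the TOM genes differ from these lists was not tested.

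**Figure D5:**
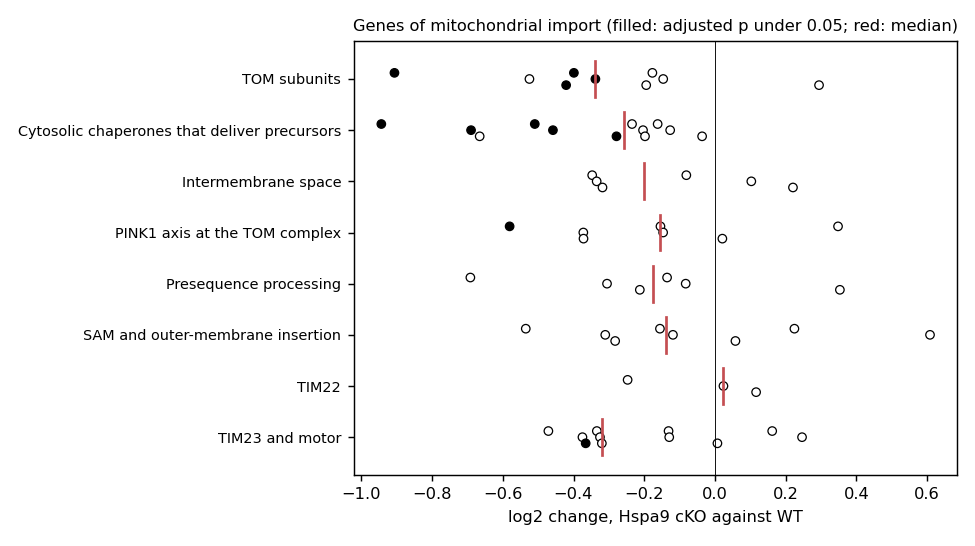
Log2 change (horizontal axis, Hspa9 cKO against WT) of each gene tested in the TOM group and the 7 lists of import genes (rows); filled points have an adjusted p under 0.05 and red lines are medians. All 12 points of the cytosolic chaperones lie below 0, as do 8 of the 9 TOM genes.

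The genes whose levels followed the TOM genes most closely were found over the 6 libraries, by Pearson's r with the mean standardised profile of the 8 genes placed by gene ID. They were Fkbp4 (r = 0.999), an Hsp90 cochaperone, Ptgs2 (0.998), Cd8b1 (0.997), Nr4a1 (0.997) and Ncapg (0.996). Fkbp4 stood at 203.9, 196.3 and 198.5 FPKM in WT and at 140.6, 144.2 and 134.9 FPKM in Hspa9 cKO. Against the same profile, of which each is a part, Tomm20 had r = 0.988, Tomm7 0.964, Tomm5 0.934, Tomm70a 0.863, Tomm34 0.851, Tomm22 0.823, Tomm40 0.758 and Tomm40l -0.29. All 5 named genes were called lower with groups that did not overlap, where 5.83% of all genes tested were called lower. They were picked for likeness to a profile whose members mostly separate the groups. Their calls therefore largely follow from that choice and are no further result. The points share 2 groups of 3 libraries, and the values are a description with no test.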

How the data were processed

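The 6 tables give, per the file headers, 1 FPKM value for each transcript-structure event, as the authors deposited them. Per the submitters' processing notes, cutadapt 1.9.1 trimmed the reads and the build was mm10. The aligner and assembler used are not stated there. The labels' protocols name both poly(A) selection and removal of ribosomal RNA. The tables hold no counts, so depth is unknown. Summed start FPKM per library was 256513 to 272918 in WT and 248014 to 252474 in Hspa9 cKO, so every Hspa9 cKO total was lower.

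Start events (end events for a gene with no start) were summed to a level per gene, repeated events dropped, and were kept where gene ID, strand and GENCODE M21 position agreed (24119 of 27390 start events). An event left out of a table was set to 0. Tomm6 was read from the fit that places events by exon edge. Genes that reached 1 FPKM in 3 or more libraries were tested as log2(FPKM + 1) with limma 3.58.1 (R 4.3.3; trended, robust). Splicing was tested as log2((inclusion + 1)/(exclusion + 1)) for pairs whose total averaged 5 FPKM or more. Tested on simulated data with 8883 genes, the level fit recovered 25% of changes of 0.5, 69.4% of 1 and 90.6% of 2 (log2), with 1 false call of 125, and the splicing fit 60% of 200 changes of 3, with 8 false calls.

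The members and lists were chosen with earlier results of these data known. All 9 members are named, with Hspa9, up to 4 called genes per import list by adjusted p, and the 5 genes most like the members' mean profile (Naca was named beyond this rule). Alternatives were other filters, pseudocount, scalings, ends, assignment, variance model, replicate block, length and GC, and each library left out.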

Additional observations from a re-analysis of the deposited data

How the results depend on the processing

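The 4 calls (Tomm5, Tomm6, Tomm7 and Tomm20) and the negative sign of all genes but Tomm40l held under both other filters, the pseudocount of 0.1, both rescalings, the other assignments tried for each, limma without trend and robust estimation, and removal of the length and GC trend. Leaving out 1 library at a time left 0 to 2 of the 8 genes placed by gene ID called, beside 3, and 410 to 824 of all genes called, beside 1263. The tests then have fewer libraries. With a replicate block 1 of the 8 genes (Tomm5, limma adjusted p = 0.0499) and 226 of all genes were called, while Tomm6 (0.0704), Tomm7 (0.0760) and Tomm20 (0.0973) were not. In the fit by exon edge the block left 0 of 9 genes called, beside 4 (limma, 5 at an unadjusted p under 0.05, Tomm5 at adjusted p = 0.0568), and leaving out 1 library left 1 to 3. Deviations of same-numbered libraries from their group means correlated at 0.02, -0.03 and -0.02, and not every library correlated best with its own number. These correlations showed no pairing by replicate number but cannot exclude one. The log2 change of Hspa9 was -0.0573 after rescaling by trimmed means, -0.0467 after rescaling by median ratios, -0.0483 with the length and GC trend removed, and from -0.0573 to 0.0543 with 1 library left out. It was not called in any of these, and the cause was not tested. For Tomm40l the sum of ends gave -0.15. It adds the principal end, lower in Hspa9 cKO, the end of Tomm40l-204, higher there, and that of Tomm40l-205, at 2.67 FPKM in WT replicate 1 and far lower elsewhere. Counts of called splicing pairs in the TOM genes were 0 in each setting run. Tomm40l has no value at the filter of 5 FPKM, and Tomm70a has none from ends, whose single listed end was at 0.168 FPKM in Hspa9 cKO replicate 3. Depth is unknown, which leaves small changes of the low genes Tomm5 and Tomm40l without a counting error.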
